A study of Mus musculus with 12 samples.

Results

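The genes described here are 10 mouse genes of blood vessel growth and of the endothelium, the cell layer that lines vessels: the ligand genes Vegfa, Vegfb and Angpt1, the receptor genes Kdr, Flt1, Tek and Tie1, and the junction genes Pecam1, Cdh5 and Pcdh12. They were taken by symbol from a list, and all 10 were found in both deposited count tables, among 21976 genes that the tables share. The study sequenced skeletal muscle RNA of C57BL/6N mice, with 12 libraries split evenly over 4 groups of 3. Diets started at an age of 6 weeks and lasted 18 weeks in every group. The PCN group ate a high-fat diet and received 4 daily intraperitoneal injections of PCN at 50 mg/kg. PCN is pregnenolone carbonitrile, a steroid that activates the pregnane X receptor of rodents. The Vehicle group ate the high-fat diet and received corn oil with 30% DMSO on the same schedule, the HFD group ate the high-fat diet without injections, and the Chow group ate regular chow without injections. Neither the muscle sampled nor the sex of the mice is given in the sources used here. The labels do not say that each library came from its own mouse, so p-values measure the spread between these samples.

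Muscle fibres and other cells make VEGF-A, the product of Vegfa, which acts on endothelial cells mainly through the receptor tyrosine kinase encoded by Kdr. Flt1 encodes a second receptor that binds VEGF-A tightly, signals weakly and also binds VEGF-B, the product of Vegfb. Angiopoietin encoded by Angpt1 comes largely from cells around the vessel and activates the endothelial receptor encoded by Tek, with which the product of Tie1 forms complexes. Pecam1 and Cdh5 encode adhesion molecules of endothelial junctions, and Pcdh12 encodes a protocadherin of endothelial cells. In muscle this system is known to follow fibre type and activity, with more capillaries around oxidative fibres.

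Promoter windows of 300 bases, from 250 before to 50 after the annotated start, were available from RefSeq (GRCm38.p6) for 6 of the 10 genes. The windows of Vegfa (first start, chr17:46032328-46032627, minus strand), Kdr (chr5:75978406-75978705, minus strand) and Tek (chr4:94739039-94739338, plus strand) are shown because these 3 genes had the lowest p-values of the set between HFD and Chow. Capitals mark the letters GGAA (core of ETS factor motifs, a family with endothelial members) and GGGCGG (GC box) on either strand.
Vegfa: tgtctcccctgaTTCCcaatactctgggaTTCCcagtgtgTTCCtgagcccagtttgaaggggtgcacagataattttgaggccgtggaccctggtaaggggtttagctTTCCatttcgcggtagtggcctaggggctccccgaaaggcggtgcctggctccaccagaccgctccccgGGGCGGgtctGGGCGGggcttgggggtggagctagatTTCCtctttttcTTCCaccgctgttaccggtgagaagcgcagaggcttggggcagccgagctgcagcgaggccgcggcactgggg
Kdr: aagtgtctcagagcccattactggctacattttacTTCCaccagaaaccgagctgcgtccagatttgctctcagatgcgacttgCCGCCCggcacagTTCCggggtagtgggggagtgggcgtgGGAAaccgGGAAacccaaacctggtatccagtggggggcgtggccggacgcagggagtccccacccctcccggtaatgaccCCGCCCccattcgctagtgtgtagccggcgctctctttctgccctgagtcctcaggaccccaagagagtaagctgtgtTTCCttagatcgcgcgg
Tek: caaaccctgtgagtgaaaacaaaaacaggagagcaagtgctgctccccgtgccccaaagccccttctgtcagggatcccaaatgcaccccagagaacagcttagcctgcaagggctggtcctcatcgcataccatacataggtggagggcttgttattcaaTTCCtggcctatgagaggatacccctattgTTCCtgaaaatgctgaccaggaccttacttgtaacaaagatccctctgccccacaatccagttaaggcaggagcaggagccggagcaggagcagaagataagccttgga

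The Vegfa window held 6 copies of GGAA and 2 of GGGCGG, and the Kdr window 5 and 2. The Tek window held 2 copies of GGAA and none of GGGCGG. Of 32851 mouse promoter windows, 96% held GGAA, with a median of 3 copies, and 35.7% held GGGCGG, so the first is nearly universal. Of the letters of the hypoxia response core, GCGTG occurred 2 times in the Kdr window and was not found in the Vegfa and Tek windows shown, against 32.4% of all windows with at least 1 copy. ACGTG, in 19.6% of all windows, was in none of the 3 windows shown. The second Vegfa window (chr17:46025114-46025413), which is not shown, held 1 copy of each. Over the 7 windows of the 6 genes, GCGTG was in 4 and ACGTG in 1. Neither AAGGTCA, the extended half-site of oestrogen-related receptors (4.72% of all windows), nor the AP-1 letters TGAGTCA (5.2%) occurred in any of the 7 windows of the 6 genes. GC content was 62% for Vegfa, 60.7% for Kdr and 52% for Tek, with a median of 52.7% over all windows. All motifs were counted on both strands, each on its own even where letters overlap. Sequence outside the windows was not searched, so the absence of a motif holds for the windows only. The Flt1 window held the letters TATAAA, which 13.6% of all windows contain, and Tie1 had the most GGAA copies, 9.

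Library totals ran from 12770308 (Chow 8) to 19739226 counts (PCN 27), and mitochondrial genes took 10.8% to 20.4% of the counts. Fast-fibre markers dominated every library, so the labelled tissue is present throughout. In counts-per-million values (CPM), 10 of 11 markers summed to 105132 to 181079 in PCN and 111808 to 181203 in Vehicle. All 11 summed to 127176 to 176186 CPM in HFD and 129594 to 161390 CPM in Chow. Each table had its own scaling, so these sums are not compared between tables. Slow-fibre markers differed between libraries. Over 8 of 9 markers they summed to 44.7 to 65.4 CPM in HFD and to 50.1 CPM in Chow 8, 639 CPM in Chow 17 and 720 CPM in Chow 19. In the other table, where 2 of the 9 were analysed, the sums were 72 CPM in PCN 5 and 42.3 CPM in Vehicle 55, against 6.63 to 14 CPM in the 4 other libraries. These 2 high sums were mostly Casq2, whose highest level was 67.6 CPM in PCN and 39.5 CPM in Vehicle. They are not the same measure as the sums over 8 markers. PCN 5 (18.5%) and Vehicle 55 (19.5%) also had the highest mitochondrial share of their groups, as Chow 17 (20.4%) had of Chow.

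On the scale of CPM per kilobase of merged exons, averaged over the 12 libraries, Vegfa was the highest of the 10 genes at 23.2, followed by Vegfb at 15.4. The junction genes Cdh5 (7.87) and Pecam1 (6.25) came next. Flt1 reached 3.88, Angpt1 3.19, Tek 3.08, Tie1 2.47 and Kdr 1.34. Pcdh12 was the lowest at 0.221. All levels given below for the 10 genes are TMM-normalised CPM from 1 scaling of the 12 libraries, which does not correct for gene length and is used only to compare 1 gene between samples. In bulk tissue, fewer endothelial cells and less RNA per endothelial cell cannot be told apart.

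**Figure D1:**
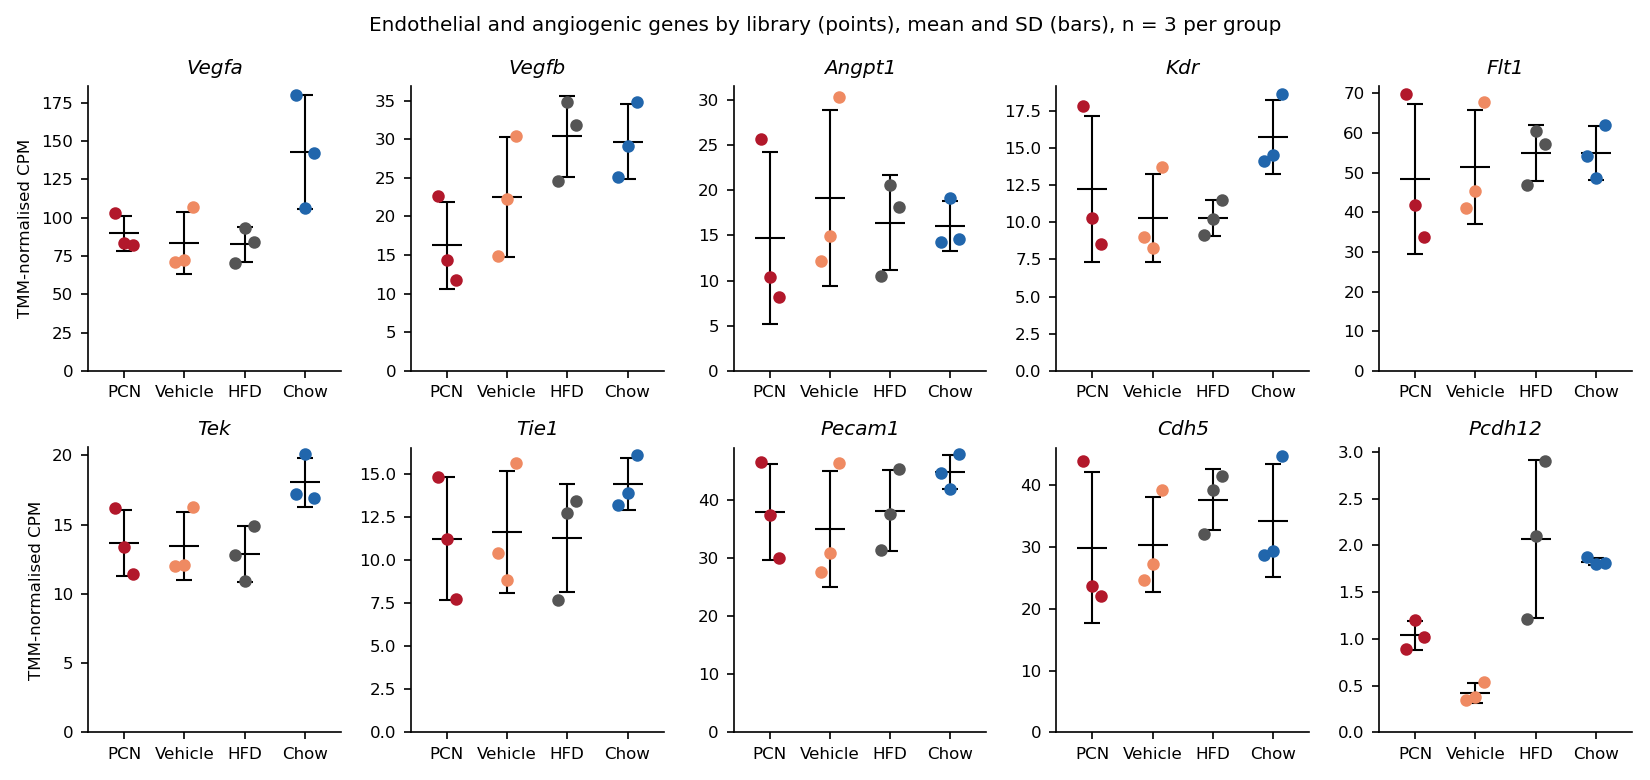
Levels of the 10 genes in TMM-normalised CPM (vertical axes, starting at 0) for the PCN, Vehicle, HFD and Chow groups, with 1 point per library and bars for the mean and SD of 3 libraries. Vegfa and Tek sit higher in Chow than in the HFD group, and Pcdh12 has its 3 lowest points in Vehicle.

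Vegfa (17:46016993-46032369, minus strand) was lower in HFD than in Chow muscle. Its level was 70.5, 92.9 and 84.4 CPM in HFD 4, 30 and 38, against 180, 106 and 142 CPM in Chow 8, 17 and 19. Every HFD library lay below every Chow library, while Chow itself spread widely, from 106 CPM to 180 CPM. The log2 fold change was -0.77 ± 0.20 (SE; 95% interval -1.22 to -0.32), a ratio of 0.585, with an unadjusted p of 0.00327 and an adjusted p of 0.517 in edgeR's quasi-likelihood test. It ranked 79th of 12686 genes by p. At the adjusted threshold of 0.05, 0 genes (0.00%) passed in this comparison, so no gene of the set can be called changed by the diet. DESeq2, in which 0.342% of genes passed, gave an adjusted p of 0.0589 for Vegfa, and the authors' deposited table lists a log2 fold change of -0.63 with an adjusted p of 0.1403. Without an expression filter, edgeR gave an adjusted p of 0.000337. Without Chow 17 and Chow 19, which carry the high slow-fibre sums, the log2 fold change was -1.12. That fit rests on Chow 8 as the only Chow library, which at 180 CPM had the highest Vegfa level of all libraries. The part of slow fibres in the Vegfa difference was not tested.

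Vegfa levels in the injected groups were like those in HFD: 103, 83.6 and 82.4 CPM in PCN 5, 11 and 27, against 70.9, 72.6 and 107 CPM in Vehicle 15, 23 and 55. The groups overlapped, and their difference was 0.11 ± 0.20 on the log2 scale (SE; interval -0.35 to 0.56, adjusted p = 0.998). Between Vehicle and HFD the log2 difference was 0.01 ± 0.21 (SE; interval -0.44 to 0.47, adjusted p = 0.985). The means over 3 libraries were 89.6 ± 11.5 CPM in PCN, 83.4 ± 20.3 CPM in Vehicle, 82.6 ± 11.3 CPM in HFD and 143 ± 37.2 CPM in Chow (SD). In order of level, Chow stood above the other 3 groups, which did not differ among themselves beyond their spread.

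Vegfb (19:6982473-6987651, minus strand) followed another order, with the lowest level in PCN. It measured 22.6, 14.4 and 11.8 CPM in PCN 5, 11 and 27, and 14.9, 22.2 and 30.4 CPM in Vehicle 15, 23 and 55. The uninjected groups held 24.6, 34.8 and 31.8 CPM in HFD 4, 30 and 38, and 25.1, 29.1 and 34.8 CPM in Chow 8, 17 and 19. PCN and Vehicle overlapped, as did HFD and Chow, and every PCN library lay below every library of HFD and of Chow. PCN minus Vehicle was -0.46 ± 0.31 on the log2 scale (SE, adjusted p = 0.998), Vehicle minus HFD -0.43 ± 0.27 (adjusted p = 0.535), and HFD minus Chow 0.05 ± 0.17 (adjusted p = 0.954). The first 2 of these rested on single libraries. With 1 library left out, PCN minus Vehicle ran from -0.20 (without Vehicle 55) to -0.78 (without PCN 5, unadjusted p = 0.0260), with -0.69 without Vehicle 15 (0.0419). Vehicle minus HFD ran from -0.22 (without Vehicle 15) to -0.71 (without Vehicle 55, 0.0205). Adjusted p-values stayed at 0.242 or above in each of these. Vegfb had an unadjusted p of 0.0204 and an adjusted p of 0.223 in the test over all 4 groups.

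Angpt1 (15:42424723-42676977, minus strand) showed its widest differences within groups. In PCN 5, 11 and 27 it measured 25.7, 10.4 and 8.22 CPM, and in Vehicle 15, 23 and 55 it measured 12.2, 14.9 and 30.3 CPM. Its levels were 10.5, 20.6 and 18.2 CPM in HFD 4, 30 and 38, against 14.3, 19.2 and 14.6 CPM in Chow 8, 17 and 19. The highest values of the 12 libraries were those of Vehicle 55 and PCN 5, and all 4 groups overlapped. The log2 differences were -0.37 ± 0.52 for PCN minus Vehicle (interval -1.62 to 0.87), 0.22 ± 0.45 for Vehicle minus HFD and 0.06 ± 0.24 for HFD minus Chow (SE). Without PCN 5, PCN minus Vehicle was -1.04 (unadjusted p = 0.0297, adjusted p = 0.944). Exons of Angpt1 share 737 bases with Gm17473 on the opposite strand, and reads of these genes cannot be separated there without a stated strand setting.

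Kdr (5:75932827-75978458, minus strand) was lower in HFD than in Chow, as Vegfa was. It measured 9.13, 10.2 and 11.5 CPM in HFD 4, 30 and 38, against 14.1, 14.5 and 18.6 CPM in Chow 8, 17 and 19, with no overlap. The log2 fold change was -0.60 ± 0.16 (SE; interval -0.96 to -0.23), a ratio of 0.662, with an unadjusted p of 0.00475 and an adjusted p of 0.539. Without Chow 17 and Chow 19, with Chow 8 as the only Chow library, it was -0.44. Between the injected groups, Kdr measured 17.8, 10.3 and 8.54 CPM in PCN 5, 11 and 27, against 8.98, 8.25 and 13.7 CPM in Vehicle 15, 23 and 55. These overlapped, with the high value of each group in PCN 5 and Vehicle 55, and the log2 difference was 0.25 ± 0.30 (SE; interval -0.44 to 0.94). It was -0.13 without PCN 5. Vehicle and HFD had the same mean, 10.3 ± 2.94 CPM in Vehicle and 10.3 ± 1.2 CPM in HFD (SD, 3 libraries each).

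Flt1 (5:147561604-147726011, minus strand), the other VEGF receptor gene, did not show the lower level in HFD. It measured 46.9, 60.5 and 57.3 CPM in HFD 4, 30 and 38, against 54.1, 48.6 and 62.1 CPM in Chow 8, 17 and 19. These values overlapped, with a log2 difference of 0.01 ± 0.15 (SE; interval -0.32 to 0.35). In PCN 5, 11 and 27 it measured 69.8, 41.7 and 33.8 CPM, against 41, 45.4 and 67.8 CPM in Vehicle 15, 23 and 55, a log2 difference of -0.08 ± 0.30 (SE; interval -0.76 to 0.59). The highest 2 libraries of all 12 were PCN 5 and Vehicle 55.

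Tek (4:94739289-94874976, plus strand) was the third gene with a lower level in HFD and no overlap. Its values were 12.8, 10.9 and 14.9 CPM in HFD 4, 30 and 38, against 17.2, 20.1 and 16.9 CPM in Chow 8, 17 and 19. The log2 fold change was -0.47 ± 0.16 (SE; interval -0.81 to -0.12), with an unadjusted p of 0.0135 and an adjusted p of 0.635. It was -0.40 without Chow 17 and Chow 19, with Chow 8 as the only Chow library. In the injected groups Tek measured 16.2, 13.4 and 11.4 CPM in PCN 5, 11 and 27, and 12, 12.1 and 16.3 CPM in Vehicle 15, 23 and 55. PCN and Vehicle overlapped, with a log2 difference of 0.02 ± 0.20 (SE; interval -0.43 to 0.47). All 9 libraries of mice on the high-fat diet lay below all 3 Chow libraries. In the 12-library fit 0.718% of genes were lower in this way.

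Tie1 (4:118471191-118490061, minus strand) averaged 11.2 ± 3.53 CPM in PCN, 11.6 ± 3.51 CPM in Vehicle, 11.3 ± 3.13 CPM in HFD and 14.4 ± 1.5 CPM in Chow (SD, 3 libraries each). HFD overlapped Chow, at 7.68 to 13.4 CPM in HFD and 13.2 to 16.1 CPM in Chow, and the log2 difference of -0.33 ± 0.21 (SE; interval -0.79 to 0.13) had an unadjusted p of 0.139. PCN minus Vehicle was -0.05 ± 0.28 (SE).

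Between HFD and Chow, 3 of the 10 genes (Vegfa, Kdr and Tek) had an unadjusted p under 0.05, all lower in HFD, while 3.92% of all tested genes did so in that direction and 7.70% in either. The same 3 genes were the ones whose groups did not overlap, against 6.39% of all genes with HFD wholly below Chow. The set was chosen with results of these libraries known, so these shares describe it and test nothing. Without Chow 17 and Chow 19, which leaves Chow 8 as the only Chow library, assumed to vary like the HFD libraries, Vegfa alone was under 0.05 (unadjusted p = 0.000109), with 0.0631 for Kdr and 0.0839 for Tek. Tek was also above it without HFD 30 (0.0657). Over the 10 genes, 5 had a log2 fold change above 0 and 5 below (49.9% of all genes were below), with a median of -0.10, where the median of all genes was 0.00043.

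**Figure D2:**
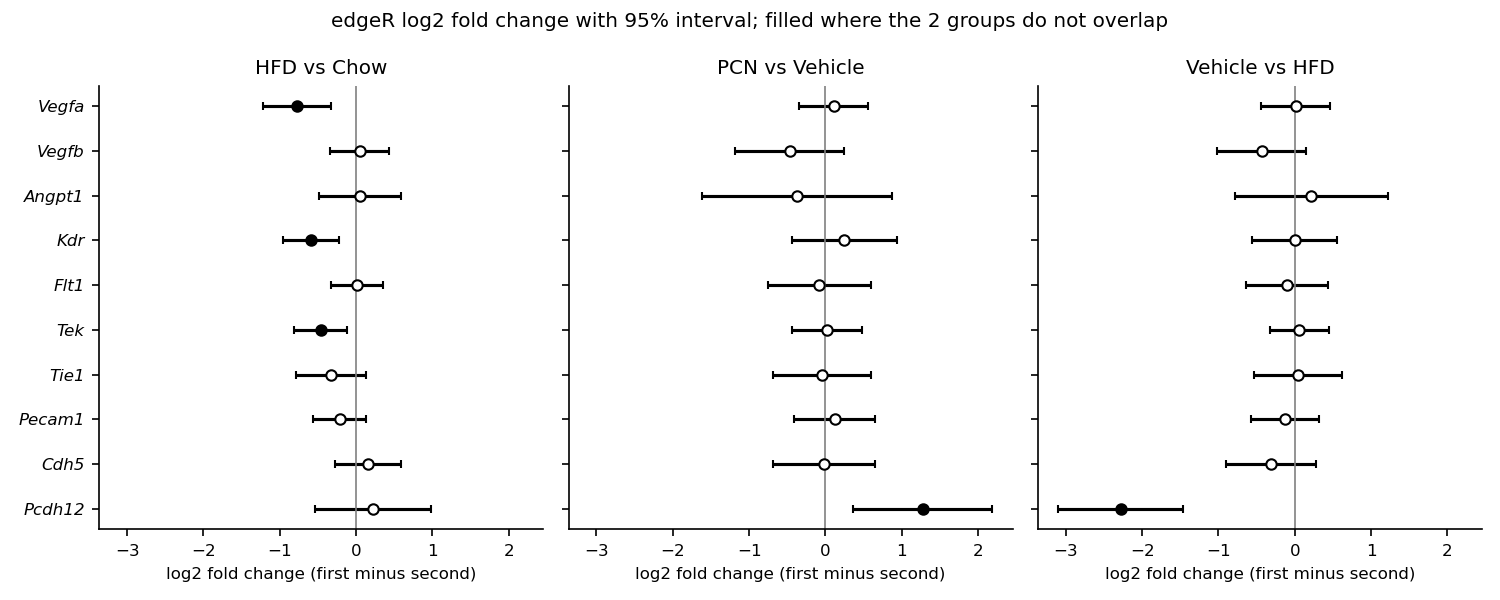
Fitted log2 fold changes (horizontal axes, first-named group minus second-named) of the 10 genes with 95% intervals for HFD vs Chow, PCN vs Vehicle and Vehicle vs HFD. Filled points mark genes whose groups do not overlap: Vegfa, Kdr and Tek in the first panel and Pcdh12 in the other 2.

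Pecam1 (11:106654217-106750628, minus strand) measured 31.4, 37.6 and 45.3 CPM in HFD 4, 30 and 38, against 44.6, 41.8 and 47.8 CPM in Chow 8, 17 and 19. The groups overlapped and the log2 difference was -0.21 ± 0.16 (SE; interval -0.56 to 0.13, adjusted p = 0.749). In PCN 5, 11 and 27 it measured 46.4, 37.3 and 29.9 CPM, against 27.6, 30.8 and 46.3 CPM in Vehicle 15, 23 and 55, with a log2 difference of 0.12 ± 0.24 (SE). Without HFD 38, HFD minus Chow was -0.36 (unadjusted p = 0.0424, adjusted p = 0.570), and without HFD 4 it was -0.090. PCN and Vehicle covered nearly the same range.

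Cdh5 (8:104101625-104144511, plus strand), the gene of the defining cadherin of endothelial junctions, measured 32.2, 39.3 and 41.6 CPM in HFD 4, 30 and 38, against 28.7, 29.4 and 44.8 CPM in Chow 8, 17 and 19. Chow held both the lowest and the highest of these 6 values. HFD minus Chow was 0.15 ± 0.19 on the log2 scale (SE; interval -0.28 to 0.58), against the -0.21 of Pecam1, and neither passed the test. The value for Cdh5 depended on single libraries, at 0.39 without Chow 19 (unadjusted p = 0.0212, adjusted p = 0.196) and 0.039 without Chow 17. In PCN 5, 11 and 27 it measured 44, 23.7 and 22.1 CPM, and in Vehicle 15, 23 and 55 it measured 24.7, 27.3 and 39.2 CPM. PCN minus Vehicle was -0.02 ± 0.29 (SE; interval -0.69 to 0.65) and Vehicle minus HFD -0.31 ± 0.27 (SE, adjusted p = 0.678).

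Pcdh12 (18:38267092-38284402, minus strand) differed most of the 10 genes between PCN and Vehicle and between Vehicle and HFD, at the lowest counts. It had 14, 19 and 22 reads in PCN 5, 11 and 27, 6, 7 and 10 reads in Vehicle 15, 23 and 55, 15, 30 and 52 reads in HFD 4, 30 and 38, and 23, 28 and 32 reads in Chow 8, 17 and 19. As CPM these were 0.891, 1.2 and 1.02 in PCN, 0.348, 0.38 and 0.542 in Vehicle, 1.21, 2.1 and 2.9 in HFD, and 1.87, 1.8 and 1.81 in Chow. Vehicle was the lowest group, below every library of the other 3, and PCN came next, below every library of HFD and of Chow. HFD and Chow overlapped.

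The log2 fold change of Pcdh12 in PCN over Vehicle was 1.28 ± 0.41 (SE; interval 0.37 to 2.19), a ratio of 2.43, with an unadjusted p of 0.0109 and an adjusted p of 0.998. Pcdh12 was the only one of the 10 genes whose PCN and Vehicle libraries did not overlap and the only one with an unadjusted p under 0.05. The filter's minimum count of 10 is scaled by library size, and no Vehicle library reached it (6, 7 and 10 reads). Pcdh12 thus entered this comparison only through PCN, where it is higher, so neither value is independent of the filter. Without the filter, edgeR gave a log2 fold change of 1.27, an unadjusted p of 0.0242 and an adjusted p of 0.858. Over all genes, PCN lay wholly above Vehicle for 4.40%, an unadjusted p under 0.05 with a higher level held for 1.35%, and 0.00% passed the adjusted threshold. Over the 10 genes, 5 were above 0 and 5 below (47.7% of all genes were below), with a median of -0.00066. The authors' deposited table lists a log2 fold change of 0.47 for Pcdh12 with an unadjusted p of 0.0396 for this comparison. In Vehicle over HFD the log2 fold change was -2.28 ± 0.38 (SE; interval -3.10 to -1.47), a ratio of 0.205, with an unadjusted p of 2.83e-05 and an adjusted p of 0.116. It ranked second of 13375 genes by p in a comparison where 0.00% passed the adjusted threshold, 6.51% were lower at an unadjusted p under 0.05 (12.8% in either direction) and 11.0% had Vehicle wholly below HFD. Fitted on the 6 HFD and Vehicle libraries alone, the adjusted p was 0.0424, and Pcdh12 passed the filter there only through HFD. Without the filter, on all 12 libraries, the adjusted p in edgeR was 0.0534. Vehicle and HFD come from different deposited tables, so the injections and the table cannot be told apart.

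Tested over the 4 groups at once, Pcdh12 had an adjusted p of 0.0505 in edgeR and of 0.000332 in DESeq2, and Vegfa 0.129 in edgeR and 0.0175 in DESeq2. None of the 10 genes passed in edgeR, where 24 of 13375 genes (0.179%) did, and DESeq2 passed 6.56% of the genes it tested. For Pcdh12 the edgeR value fell to 0.0304 without PCN 11 and to 0.0364 without Chow 19, and ranged up to 0.142 without HFD 30. At an unadjusted p under 0.05, 3 of the 10 genes passed (Pcdh12, Vegfa and Vegfb), against 15.5% of all genes. Adjusted p-values were 0.354 for Tek, 0.417 for Kdr, 0.717 for Pecam1, 0.768 for Tie1, 0.816 for Cdh5, 0.945 for Flt1 and 0.945 for Angpt1.

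Further contrasts over the 4 groups came from the same 12-library fit. They were chosen after the data were seen, share the HFD or Chow libraries with the comparisons above, and mostly cross the tables. In PCN over HFD, Vegfb differed by -0.90 ± 0.27 on the log2 scale (SE; interval -1.49 to -0.31, ratio 0.534) with an adjusted p of 0.0769, and Pcdh12 by -1.01 ± 0.35 (SE, adjusted p = 0.107). Both had PCN wholly below HFD, as 12.9% of all genes had, and 4.14% of all genes passed the adjusted threshold in this contrast. In PCN over Chow, Vegfa (-0.67 ± 0.21), Vegfb (-0.87 ± 0.27), Tek (-0.41 ± 0.18) and Pcdh12 (-0.81 ± 0.35) had PCN wholly below Chow (log2, SE), against 8.26% of all genes. Their adjusted p-values ran from 0.183 to 0.323, where 0.127% of all genes passed the threshold. In Vehicle over Chow, Vegfa differed by -0.77 ± 0.21 (SE, adjusted p = 0.425), with Vehicle 55 at 107 CPM just above Chow 17 at 106 CPM. Kdr (-0.61 ± 0.26), Tek (-0.42 ± 0.18) and Pcdh12 (-2.09 ± 0.38) had Vehicle wholly below Chow (log2, SE), against 7.17% of all genes, and 0.0150% of all genes passed the adjusted threshold. The mean of the 3 groups on the high-fat diet differed from Chow by -0.74 ± 0.16 for Vegfa (log2, SE; adjusted p = 0.166, rank 37 of 13375), -0.90 ± 0.28 for Pcdh12 (adjusted p = 0.425, rank 179), -0.53 ± 0.20 for Kdr (adjusted p = 0.621) and -0.44 ± 0.14 for Tek (adjusted p = 0.498). The groups of Vegfa, Kdr and Pcdh12 overlapped in this contrast, and Pcdh12 had its low values in Vehicle and PCN. Tek was wholly below Chow, as 0.718% of all genes were. In that contrast 0.0374% of all genes passed the adjusted threshold.

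The receptor genes, Pecam1 and Cdh5 were high together or low together in several libraries of the same group. Relative to each gene's own mean over the 12 libraries, the 6 genes Kdr, Flt1, Tek, Tie1, Pecam1 and Cdh5 averaged 0.38 in PCN 5, -0.19 in PCN 11 and -0.48 in PCN 27 on the log2 scale. They averaged -0.33 in Vehicle 15, -0.31 in Vehicle 23 and 0.30 in Vehicle 55. All 6 were above their means in PCN 5, Vehicle 55 and Chow 19, and none was in PCN 11, PCN 27, Vehicle 15 and Vehicle 23. HFD ranged from -0.26 (HFD 4) to 0.17 (HFD 38), and Chow from 0.14 (Chow 8) to 0.41 (Chow 19). PCN 5 and Vehicle 55 are the libraries with the high slow-fibre sums, over 2 markers and mostly Casq2, and the high mitochondrial shares of their table. Chow 19 has the highest slow-fibre sum of its own table, over 8 markers, but the lowest mitochondrial share of Chow (15.2%). Chow 17, with a slow-fibre sum of 639 CPM and a mitochondrial share of 20.4%, averaged 0.16, close to Chow 8 and HFD 38, which have low slow-fibre sums. The part of these measures in the 6 genes' levels was not tested. Leaving out PCN 5 and Vehicle 55 together, an alternative added after the data were seen, gave PCN minus Vehicle log2 differences between -0.55 (Angpt1) and 0.21 (Vegfa) for the 9 genes other than Pcdh12, and 1.58 for Pcdh12 (adjusted p = 0.989). Unadjusted p-values were then 0.0160 for Pcdh12 and 0.0445 for Angpt1. The share of all genes under 0.05 in this setting was not computed, so these values cannot be set against it.

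**Figure D3:**
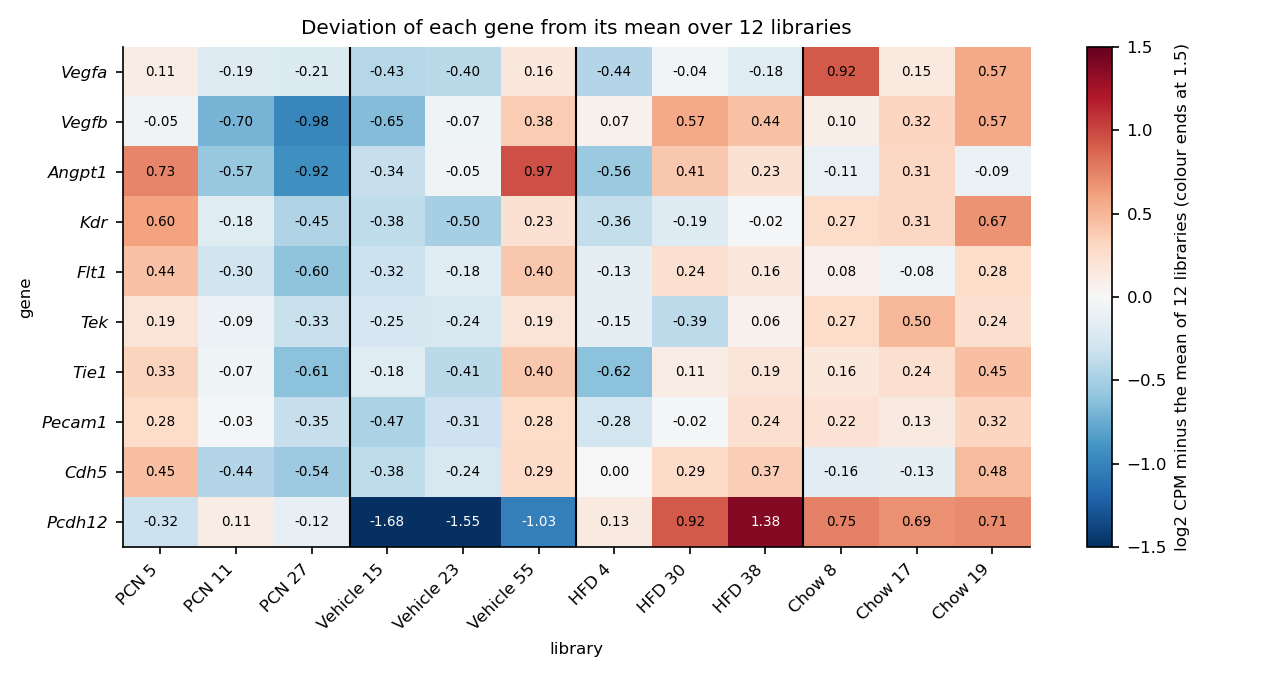
Log2 CPM of each gene (rows) in each library (columns, grouped as PCN, Vehicle, HFD and Chow) minus the gene's mean over the 12 libraries. PCN 5, Vehicle 55 and Chow 19 are above the mean for each of the 6 receptor and junction genes from Kdr to Cdh5, and Pcdh12 is lowest in Vehicle, at -1.68 to -1.03.

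Ratios of read counts between 2 genes within a library were also computed, and those given were chosen after their values were seen. Of the 45 pairs among the 10 genes, 13 had ratios that did not overlap between HFD and Chow, in either direction. Between PCN and Vehicle 14 did not overlap, 9 of them with Pcdh12. Between Vehicle and HFD, which share the diet but come from different deposited tables, 20 did not overlap, 9 of them with Pcdh12. Kdr over Cdh5 and Vegfa over Vegfb were among these 20, both higher in Vehicle, while Kdr over Flt1 overlapped. Separation of ratios was thus no rarer between groups on the same diet. The pairs shown are picked examples, and the share over pairs of all genes was not computed. An exact permutation test of the log2 ratios of Kdr over Flt1 and Kdr over Cdh5 gave p = 0.1 in HFD vs Chow and in PCN vs Vehicle. With 3 libraries per group this test can give no lower value, so it cannot decide. The ratio of Kdr to Flt1 counts was 0.255, 0.248 and 0.252 in PCN 5, 11 and 27, against 0.219, 0.182 and 0.202 in Vehicle 15, 23 and 55. It was 0.195, 0.169 and 0.201 in HFD 4, 30 and 38, against 0.26, 0.298 and 0.3 in Chow 8, 17 and 19. PCN did not overlap Vehicle and HFD did not overlap Chow, as for the other pairs in those counts. The log2 difference of the ratio was 0.33 for PCN minus Vehicle and -0.60 for HFD minus Chow. For Kdr over Cdh5 the means were 0.409 ± 0.025 in PCN and 0.338 ± 0.032 in Vehicle, and 0.274 ± 0.012 in HFD and 0.466 ± 0.044 in Chow (SD, 3 libraries each).

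Pcdh12 relative to Cdh5 was 0.0203, 0.0507 and 0.0463 in PCN 5, 11 and 27, against 0.0141, 0.0139 and 0.0138 in Vehicle 15, 23 and 55. The Vehicle ratios rest on 6, 7 and 10 reads of Pcdh12, so their counting error is far wider than the differences among them. HFD libraries ranged from 0.0377 to 0.0696 and Chow libraries from 0.0405 to 0.0652, so Vehicle was below all 9 others on this scale too. Vegfa over Vegfb ranged from 2.66 to 2.87 in HFD and from 3.63 to 7.19 in Chow, without overlap, as 13 of 45 pairs had in this comparison (5 of them with Vegfa), and from 4.55 to 6.96 in PCN and from 3.27 to 4.76 in Vehicle, with overlap. Chow 8 gave the top of the Chow range, as it did for Vegfa itself.

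**Figure D4:**
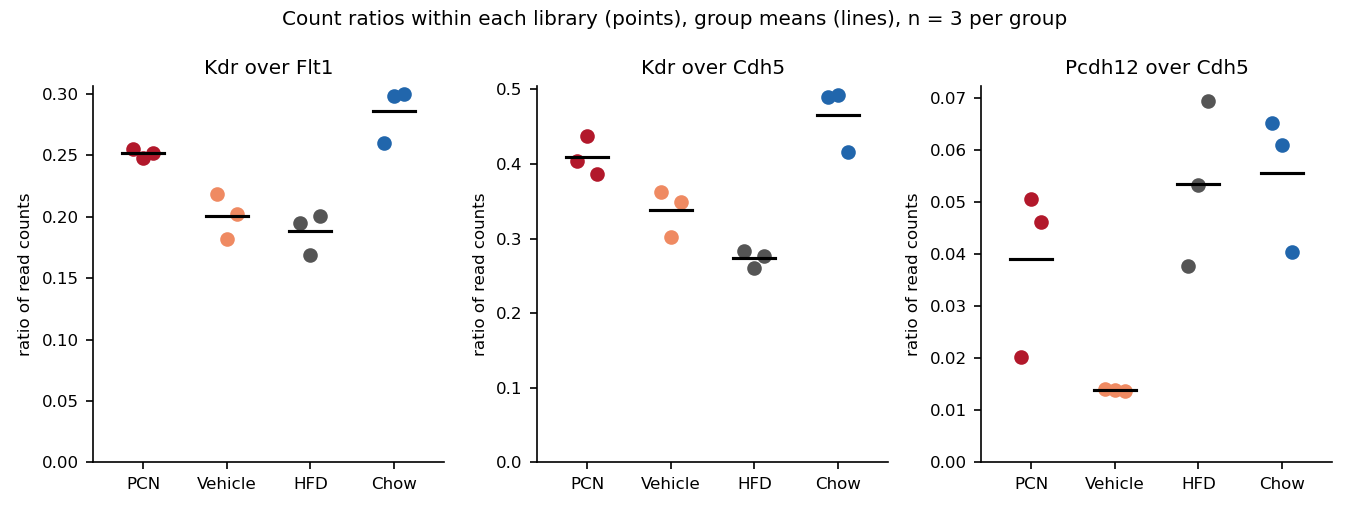
Ratio of read counts within each library (points) for Kdr over Flt1, Kdr over Cdh5 and Pcdh12 over Cdh5 in PCN, Vehicle, HFD and Chow, with group means as lines and axes from 0. Kdr over Flt1 lies at 0.248 to 0.255 in PCN and 0.182 to 0.219 in Vehicle, and at 0.169 to 0.201 in HFD and 0.26 to 0.3 in Chow.

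Other genes of the vessel wall were read from lists, with levels scaled within each table. Of 32 other endothelial markers, 22 had a log2 fold change below 0 and 10 above in HFD over Chow, with a median of -0.18, where 49.9% of all genes were below 0. At an unadjusted p under 0.05, 5 were lower and 0 higher, against 3.92% of all genes lower and 7.70% in either direction, and 0 passed the adjusted threshold. Emcn, which encodes a sialomucin of capillary and venous endothelium, measured 3.13 to 5.56 CPM in HFD and 5.67 to 7.45 CPM in Chow (log2 fold change -0.68 ± 0.24, SE). Fli1, an ETS transcription factor gene, differed by -0.53 ± 0.21, Podxl by -0.44 ± 0.18 and Adgrl4 by -0.31 ± 0.13 (log2, SE). In PCN over Vehicle the same list had 15 genes above 0 and 17 below, a median of -0.02 and none at an unadjusted p under 0.05, as 2.82% of all genes were.

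Among 13 tested further ligand genes, Pgf, which encodes placental growth factor, a ligand of the Flt1 receptor, measured 0.428 to 0.796 CPM in HFD and 1.02 to 1.37 CPM in Chow. Its log2 fold change was -0.98 ± 0.40 (SE) with an unadjusted p of 0.0328, and it was the only one of the 13 under 0.05, a share near the 7.70% of all genes. Vegfd, a ligand gene of the lymphatic receptor, measured 3.65, 3.94 and 11.2 CPM in the PCN libraries, in order of level, and 2.92 to 3.6 CPM in Vehicle (log2 fold change 0.98 ± 0.43, SE, adjusted p = 0.998). A single PCN library stood well above Vehicle and the other two lay just above it. Of 14 further receptor genes, Flt4, the receptor gene of lymphatic vessels, measured 2.82 to 4.97 CPM in HFD and 5.38 to 5.95 CPM in Chow (log2 fold change -0.59 ± 0.23, SE, adjusted p = 0.635). It was the only receptor gene of the 14 under 0.05 before adjustment in HFD over Chow, again near the 7.70% of all genes, and none was in PCN over Vehicle.

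The 6 lymphatic endothelial markers were lower in HFD than in Chow in log2 fold change without exception, from -0.99 to -0.43, with a median of -0.88. Of all genes, 49.9% were below 0, and 0 of the 6 passed the adjusted threshold. Reln measured 3.71 to 5.34 CPM in HFD and 8.09 to 9.2 CPM in Chow, a log2 fold change of -0.95 ± 0.19 (SE) with an unadjusted p of 0.000461 and an adjusted p of 0.305. Mmrn1 (-0.99 ± 0.28), Pdpn (-0.82 ± 0.32) and Ccl21a (-0.93 ± 0.37) were also under 0.05 before adjustment (log2, SE), so 4 of the 6 were, against 3.92% of all genes lower at that threshold. The summed level of the 6 markers was 12.1 to 20.4 CPM in HFD and 28.2 to 31.7 CPM in Chow. In PCN over Vehicle 5 of the 6 were above 0, with a median of 0.62, where 47.7% of all genes were below 0. Only Mmrn1 was under 0.05 before adjustment, against 2.82% of all genes. Mmrn1 measured 4.79 to 6.35 CPM in PCN and 2.97 to 3.59 CPM in Vehicle (log2 fold change 0.78 ± 0.23, SE, adjusted p = 0.998), and the summed levels overlapped, at 23.4 to 31.3 CPM in PCN and 17.4 to 24.1 CPM in Vehicle.

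**Figure D5:**
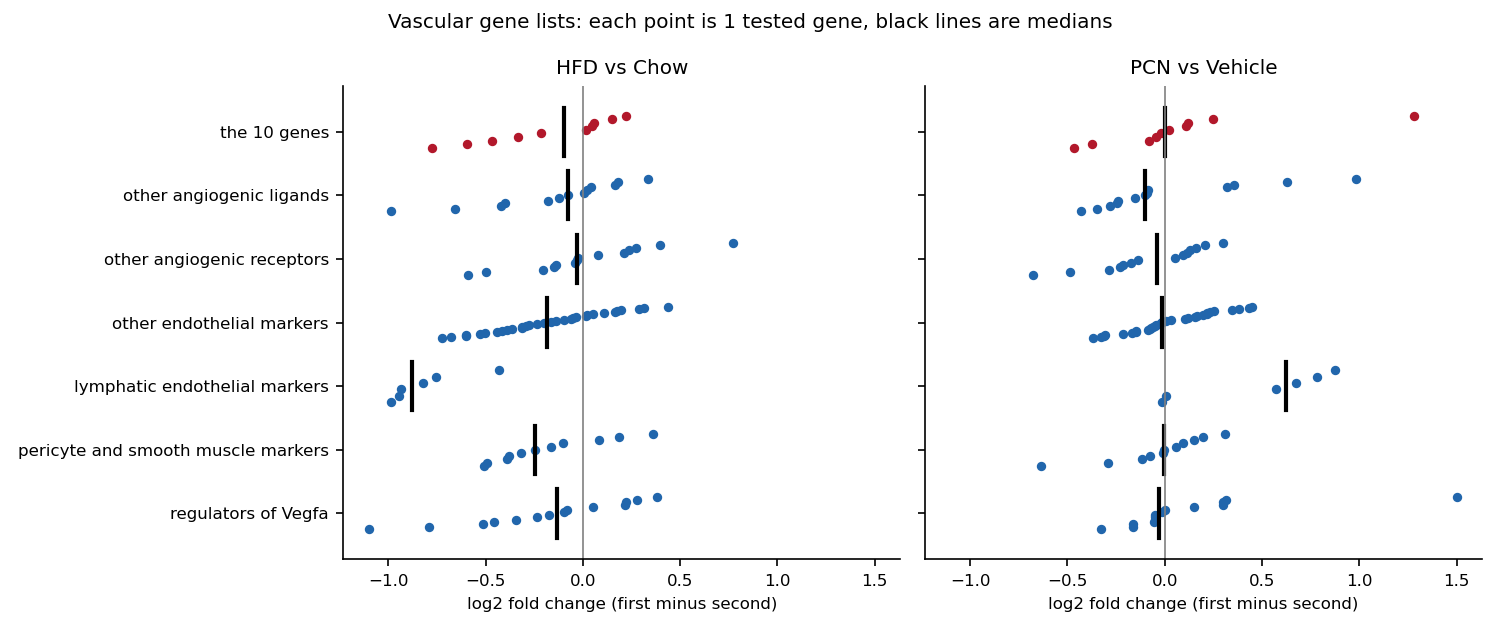
Log2 fold changes (horizontal axes) of each tested gene (points) of the 10 genes and of 6 related lists for HFD vs Chow and PCN vs Vehicle, with list medians as black lines. The lymphatic markers lie wholly below 0 in HFD vs Chow, with a median of -0.88, and have a median of 0.62 in PCN vs Vehicle.

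Pericyte and smooth muscle markers, which mark the cells around the endothelium, had 3 genes above 0 and 8 below in HFD over Chow. Their median was -0.25, where 49.9% of all genes were below 0. Myh11 measured 22.2 to 30.4 CPM in HFD and 34.1 to 40.3 CPM in Chow (log2 fold change -0.51 ± 0.15, SE, adjusted p = 0.547). Tagln differed by -0.49 ± 0.20 and Abcc9 by 0.36 ± 0.15 (log2, SE), and these 3 of 11 tested genes were under 0.05 before adjustment, against 7.70% of all genes. Of 14 genes known to act upstream of Vegfa, 5 were above 0 and 9 below, where 49.9% of all genes were below. Hif1an, which encodes an inhibitor of hypoxia-inducible factors, was at 174 to 219 CPM in HFD and 120 to 177 CPM in Chow (log2 fold change 0.38 ± 0.17, SE, adjusted p = 0.645). It was the only 1 of the 14 under 0.05 before adjustment, near the 7.70% of all genes. Esrrg, an oestrogen-related receptor gene of oxidative fibres, measured 10.1 to 23.9 CPM in HFD and 16.9 to 57.1 CPM in Chow, with overlap. In PCN over Vehicle none of the pericyte, smooth muscle or upstream genes was under 0.05 before adjustment, as 2.82% of all genes were.

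Markers of other cells were summed in each library, and no gene of these lists passed the adjusted threshold. Red blood cell markers summed to 46.3 to 57.7 CPM in HFD and 65.9 to 126 CPM in Chow over 5 of 5 genes, without overlap, and to 66.4 to 80.8 CPM in PCN and 46.9 to 226 CPM in Vehicle, with overlap. Macrophage markers summed to 49.9 to 122 CPM in HFD and 49.4 to 79.7 CPM in Chow over 12 of 12 genes, and adipocyte markers to 104 to 497 CPM in HFD and 66 to 285 CPM in Chow over 8 of 8. Fibroblast and matrix markers summed to 441 to 666 CPM in PCN and 547 to 676 CPM in Vehicle, and to 670 to 1261 CPM in HFD and 664 to 966 CPM in Chow, over 11 of 11. Adipocyte markers in the injected groups summed to 118 to 145 CPM in PCN and 109 to 363 CPM in Vehicle. The sums of macrophage, adipocyte and fibroblast markers overlapped in each pair of groups given. Gene by gene, 9 of 11 tested macrophage markers had a log2 fold change above 0 in HFD over Chow and 2 below. Of these 11, 3 had an unadjusted p under 0.05, against 7.70% of all genes. All 5 red blood cell markers were below 0 in HFD over Chow, with a median of -0.71, as 49.9% of all genes were. Of these 5, 4 were under 0.05 before adjustment, against 3.92% of all genes lower at that threshold. They were also below 0 in PCN over Vehicle, with 0 under 0.05 before adjustment. In PCN over Vehicle 8 of 8 adipocyte markers (median -1.05) and 9 of 11 fibroblast markers were below 0, as 47.7% of all genes were. Under 0.05 before adjustment were 1 adipocyte and 2 fibroblast markers, against 2.82% of all genes. No marker of these lists was at 0 in every library of a group. The part of these cells in the levels of the 10 genes was not tested.

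By Pearson's r of log2 CPM over the 12 libraries, among 10843 genes with a mean of at least 1 CPM, the pattern of Vegfa was most like those of Hhipl1 (0.837), Zfp800 (0.823), Hk2 (0.814), Pip4k2c (0.805) and Mafk (0.794). Kdr was the closest of the 10 genes to it, at 0.775. Cdh5 was most like Epas1 (0.981), Cluh (0.945), Itga1 (0.939), Lrp5 (0.936) and Pacs1 (0.934), with Flt1 at 0.927. Angpt1 was most like Hadh (0.963), Acaa2 (0.959), Fabp3 (0.953), Acads (0.946) and Lrrn1 (0.946), among which Hadh, Acaa2 and Acads encode enzymes of fatty acid oxidation. The libraries span 4 groups and 2 tables and share depth and scaling, so these values describe likeness only.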

How the data were processed

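RNA of 12 skeletal muscle libraries was sequenced. The authors deposited 2 tables of raw read counts per Ensembl gene, with 6 libraries each (HFD with Chow, PCN with Vehicle). HISAT2, HTSeq and DESeq2 are named as tools, and GRCm38 and mm10 as builds, per the submitters' processing notes. Their versions, the strand setting and the annotation release were not given in the sources used here. Other columns hold the authors' own deposited comparison. Their log2 fold changes lie closer to 0 than unshrunken DESeq2 values (Vegfa -0.63 in theirs, -0.78 unshrunken, HFD vs Chow) and are quoted only as theirs. The tables held 24093 and 24453 genes, with 21976 in both. Per the file headers, symbols and coordinates came from the tables, and coordinates are written 1-based.

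Counts were tested with edgeR 4.0.16 in R 4.3.3 (TMM, default expression filter with a minimum count of 10, robust quasi-likelihood F test, Benjamini-Hochberg adjustment over all genes tested, threshold 0.05). HFD vs Chow (12686 genes) and PCN vs Vehicle (12833) were fitted on their own 6 libraries, and Vehicle vs HFD and the 4-group test on all 12 libraries joined on the shared genes (13375). SE is the size of the log2 fold change over the square root of F, and intervals are 95%, by the t distribution. Levels per kilobase use merged exons of the mouse annotation, GENCODE on GRCm38. Within groups, chi-square values per gene between libraries ran from 19.5 to 108, far above sampling noise, so each library counted as 1 sample. Alternatives were DESeq2 1.42.0, DESeq2 size factors, no expression filter, other sets of libraries in the fit, each library left out in turn, and libraries that stand apart left out together. The tests were tried on simulated counts with known changes. Of log2 changes of size 1, 54.7% passed in HFD vs Chow, 35.0% in PCN vs Vehicle and 47.0% in Vehicle vs HFD. Of size 2, 97.9%, 83.3% and 81.8% passed. False calls were 13 of 158, 11 of 126 and 7 of 135. A gene that did not pass may therefore still differ. All 10 genes are named, with up to 4 genes of the lowest p in each comparison from each list, and the 5 genes with assigned symbols most like Vegfa, Cdh5 and Angpt1. The genes and lists were chosen with earlier results of these data known. In PCN and Vehicle, 7 of 9 slow-fibre markers were not analysed here.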

Additional observations from a re-analysis of the deposited data

How the results depend on the processing

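No paired analysis was possible because library numbers are unique to each group. Of 12686 genes in HFD vs Chow, 0 passed in edgeR, against 44 with DESeq2, 237 without an expression filter, and 0 to 219 with 1 library left out (219 without Chow 19 and 7 without Chow 8). In PCN vs Vehicle 0 passed (362 at an unadjusted p under 0.05, 0 with DESeq2), against 21 without the filter and 0 with any 1 library left out. In Vehicle vs HFD 0 passed (1708 unadjusted), against 262 with DESeq2, 2 without the filter, 193 in the 6 libraries alone and 0 with any 1 library left out. The 4-group test passed 24, against 771 with DESeq2, 185 without the filter, 88 without Chow 17 and Chow 19, and 3 to 216 with 1 library left out. HFD vs Chow had 977 genes at an unadjusted p under 0.05. Without the filter Vegfa passed in HFD vs Chow (log2 fold change -0.78, adjusted p = 0.000337) and Pcdh12 in the 4-group test (adjusted p = 0.0143), and in the 6 libraries alone Pcdh12 passed in Vehicle vs HFD (-2.29, adjusted p = 0.0424). The cause was not tested. Vegfa, Kdr and Tek kept their direction in HFD vs Chow with each library left out (-0.96 to -0.57, -0.69 to -0.46 and -0.60 to -0.36), as did Pcdh12 in PCN vs Vehicle (1.16 to 1.48) and in Vehicle vs HFD (-2.54 to -1.95). Small log2 differences changed sign. In HFD vs Chow, leaving out 1 library gave -0.056 to 0.18 for Vegfb, -0.13 to 0.29 for Angpt1, -0.077 to 0.12 for Flt1 and -0.12 to 0.48 for Pcdh12, and fitting all 12 libraries gave -0.000903 for Flt1. In PCN vs Vehicle the ranges were -0.00742 to 0.31 for Vegfa, -1.04 to 0.11 for Angpt1, -0.13 to 0.49 for Kdr, -0.44 to 0.15 for Flt1, -0.13 to 0.17 for Tek, -0.30 to 0.21 for Tie1, -0.054 to 0.36 for Pecam1 and -0.41 to 0.19 for Cdh5. In Vehicle vs HFD they were -0.20 to 0.11 for Vegfa, -0.28 to 0.45 for Angpt1, -0.26 to 0.12 for Kdr, -0.35 to 0.038 for Flt1, -0.10 to 0.18 for Tek, -0.23 to 0.19 for Tie1 and -0.38 to 0.018 for Pecam1. Kdr came to 0.000963 there without the filter. Without PCN 5 and Vehicle 55, chosen after seeing the data, Vehicle vs HFD gave -0.22 for Vegfa, -0.29 for Angpt1, -0.11 for Tek and -0.25 for Tie1. With 6 to 10 reads per library, the counting error of Pcdh12 in Vehicle is large. No Vehicle library reached the filter's minimum for this gene, so it was tested only through the other groups.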
